A study of Mus musculus with 12 samples.

Results

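The 38 genes described here encode proteins that cells use to divide their chromosomes: the cyclins and kinases that start mitosis, the kinetochore and its checkpoint, the motors that build the spindle, the proteins that split the cell, and the transcription factor Foxm1. They were chosen by gene symbol, with earlier results of these data known, and all 38 were found among the 23284 symbols of the deposited tables. Total RNA was sequenced from mouse embryonic fibroblasts (MEFs) of the secondary 1B line, which carries reprogramming factors that doxycycline (dox) switches on. The labels give 6 groups of 2 libraries: cells given siRNA to c-Myc (siMyc; the gene is Myc), to Gcn5 (siGcn5; the gene is Kat2a) or a control siRNA (siControl), each with 2 days of dox or without dox. Every group thus carries the inducible factors and was transfected with an siRNA. Dox was added in embryonic stem cell medium, and the labels give the medium of cells without dox for chromatin samples alone. The line is a single source of cells, the labels tie neither siRNA pools nor individual siRNAs to a library, and nothing says that replicates were separate cultures, so the p-values speak of how far these libraries spread and no more, and that spread may be technical.

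In mitosis, cyclin B with its kinase Cdk1 drives entry, and the Aurora and polo-like kinases shape the spindle. Kinetochores, built on centromeric chromatin, hold chromosomes to spindle microtubules, and the spindle checkpoint keeps the anaphase-promoting complex (APC/C) inactive until all are attached. The complex, with Cdc20 and the enzyme Ube2c, then marks cyclin B and securin for destruction, separase opens cohesin, and the cell divides. Most of these genes are transcribed late in the cell cycle. In quiescent and early-cycle cells the DREAM complex holds them off, and later the MuvB core with B-Myb and Foxm1 turns them on, through a promoter element called the cell cycle genes homology region (CHR), often beside CCAAT boxes bound by NF-Y. Myc is a transcription factor that binds the E-box CACGTG, and Gcn5 acetylates histones as the catalytic subunit of SAGA, a coactivator complex.

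RefSeq promoter windows of build GRCm38.p6, 250 bases before to 50 bases after a gene's start, were at hand for 31 of the 38 members. Both strands were searched. The letters taken for a CHR were TTTGAA, which reads as TTCAAA along the opposite strand, and the variant TTCGAA on either strand. Boxes for NF-Y were found as CCAAT, which along the opposite strand is ATTGG. The E-box was CACGTG, and none of these motifs contains another. A CHR was present in 23 of 31 members (74.2%), against 16.0% of the tested genes with a window and 21.7% of all genes with a window. CCAAT letters were in 23 of 31 members (74.2%), against 42.7% of tested genes, and 20 members (64.5%) held both, against 7.88%. The E-box was in 3 members, Ttk, Anln and Espl1 (9.68%), against 11.9% of tested genes. The CHR lay within 50 bases of the start in 22 of 31 members (71.0%), against 4.21% of tested genes, a distance chosen after the positions were seen. Windows of Ccnb1, Nek2, Melk, Mad2l1, Birc5, Nuf2, Cenpe and Nusap1 held no CHR letters, and those of Melk, Mad2l1, Birc5, Nuf2 and Nusap1 held no CCAAT letters as well. The table has no window for Ccna2, Aurkb, Incenp, Spc24, Tpx2, Kif20a and Foxm1.

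The 8 stretches below were picked to show that layout in members of different roles, and the values of these genes are given further on. Each runs 5′ to 3′ along the gene from 100 bases before to 50 bases after the start, in GRCm38.p6, and capitals mark CHR and CCAAT letters on either strand.
Plk1, chr7:122159335-122159484, + strand: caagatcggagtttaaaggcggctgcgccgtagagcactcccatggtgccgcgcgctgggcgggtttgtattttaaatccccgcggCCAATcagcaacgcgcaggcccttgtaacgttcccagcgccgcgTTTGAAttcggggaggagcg
Aurka, chr2:172370521-172370670, - strand: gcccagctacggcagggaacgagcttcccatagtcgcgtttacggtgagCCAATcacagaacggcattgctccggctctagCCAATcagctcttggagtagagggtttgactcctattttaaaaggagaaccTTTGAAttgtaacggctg
Ccnb2, chr9:70421505-70421654, - strand: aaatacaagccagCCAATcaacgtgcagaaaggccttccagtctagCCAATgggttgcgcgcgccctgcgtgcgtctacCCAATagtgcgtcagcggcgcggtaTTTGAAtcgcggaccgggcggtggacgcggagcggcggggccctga
Cenpa, chr5:30666786-30666935, + strand: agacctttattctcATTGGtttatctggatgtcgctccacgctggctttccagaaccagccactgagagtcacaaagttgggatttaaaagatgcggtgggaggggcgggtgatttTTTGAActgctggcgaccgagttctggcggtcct
Hmmr, chr11:40733388-40733537, - strand: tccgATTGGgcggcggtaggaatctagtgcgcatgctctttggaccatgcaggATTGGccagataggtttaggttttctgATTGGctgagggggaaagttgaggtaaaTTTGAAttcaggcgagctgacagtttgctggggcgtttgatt
Kif23, chr9:61946750-61946899, - strand: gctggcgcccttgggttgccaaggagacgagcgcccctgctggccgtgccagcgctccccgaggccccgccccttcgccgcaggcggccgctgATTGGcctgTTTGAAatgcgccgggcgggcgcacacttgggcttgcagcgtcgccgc
Prc1, chr7:80294351-80294500, + strand: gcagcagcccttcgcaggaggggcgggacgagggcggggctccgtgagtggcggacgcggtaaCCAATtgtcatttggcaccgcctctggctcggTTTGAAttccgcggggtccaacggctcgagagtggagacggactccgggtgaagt
Cdc20, chr4:118437294-118437443, - strand: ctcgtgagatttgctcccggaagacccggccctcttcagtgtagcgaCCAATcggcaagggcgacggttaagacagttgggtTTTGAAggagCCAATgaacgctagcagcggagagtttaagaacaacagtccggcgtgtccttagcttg

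In Plk1 and Aurka, kinases that act early in mitosis, the CHR stood after the start with CCAAT letters before it. In Kif23 both elements sat next to the start, and in Cdc20 the CHR lay between CCAAT letters. Ccnb2, Hmmr and Aurka carried CCAAT letters at more than 1 place. Members with both elements and the other 11 members with a window had similar medians: with siMyc and dox, a log2 difference of -1.56 from siControl for the 20 with both and -1.33 for the others, and with siGcn5 and no dox -1.83 and -1.64. These are descriptions of letters in a window, not of bound factors.

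**Figure D1:**
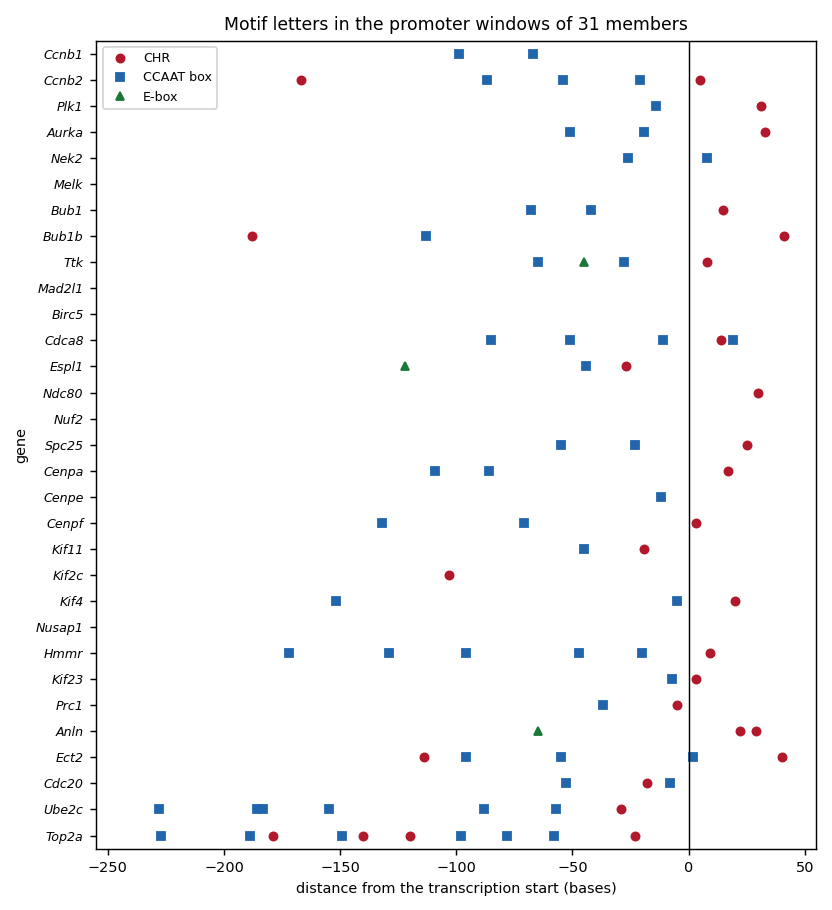
Positions of CHR, CCAAT box and E-box letters in the promoter windows of 31 members, by distance in bases from the transcription start (vertical line at 0); rows are genes, by role, and the first window is drawn for genes with several. Most CHR letters lie within 50 bases of the start, with CCAAT letters before them, and E-box letters appear in Ttk, Espl1 and Anln.

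Levels were RPKM, read counts scaled by transcript length and by the library's total, as the authors deposited them. Each library held 65545587 to 188131691 gene reads, and each member had 179 to 39199 reads in a library (median 4022), recovered from the RPKM steps. All 38 members passed the filter on low values, an RPKM of at least 1 in at least 2 libraries, which 13175 genes passed. The targets were low in the libraries labelled for them: Myc had 16.9 and 26.2 RPKM in siMyc with dox, against 174 and 155 in siControl with dox, and Kat2a 6.27 and 9.11 RPKM in siGcn5 with dox, against 55.7 and 53.1. Without dox, Myc had 4.57 and 4.80 RPKM in siMyc, against 21.7 and 17.6 in siControl, and Kat2a 1.33 and 1.97 in siGcn5, against 23.0 and 20.7. Lower levels of the other target were called in siMyc with dox and in siGcn5 with and without dox. In siMyc without dox, Kat2a differed from siControl by log2 -0.34 (SE 0.15, limma adjusted p = 0.129), which did not pass. Against siControl, Kat2a differed by log2 -1.49 (SE 0.15, limma adjusted p = 8.27e-06) in siMyc with dox, and Myc by log2 -1.17 (SE 0.20, limma adjusted p = 0.000613) in siGcn5 without dox and log2 -0.51 (SE 0.20, limma adjusted p = 0.0464) in siGcn5 with dox. RPKM does not separate an introduced Myc copy from the cell's own. All 10 fibroblast markers were found, and their summed RPKM with dox was 5884 to 5910 in siMyc, 4443 to 5178 in siGcn5 and 2931 to 3338 in siControl, and without dox 10381 to 10443 in siMyc, 9098 to 9383 in siGcn5 and 11213 to 11283 in siControl. Within this list Dcn went the other way. It had 272 and 293 RPKM in siMyc with dox, against 10.9 and 12.1 without. In siControl it had 100 and 103 RPKM with dox, against 4.59 and 6.81 without. Lum was also higher with dox in siMyc, at 1.66 and 1.93 RPKM against 0.388 and 0.503 without. In siGcn5 and siControl Lum was under 1 RPKM in each library. The summed RPKM of 6 epithelial markers was 1125 to 1241 in siMyc, 460 to 535 in siGcn5 and 451 to 514 in siControl with dox, and without dox 6.98 to 7.33 in siMyc, 36.5 to 41.9 in siGcn5 and 6.54 to 7.53 in siControl. Krt14 and Krt8 made up most of that epithelial sum with dox, and Krt18 without dox. Krt18 had 17.9 and 18.2 RPKM with dox in siMyc, against 5.63 and 6.39 without. In siGcn5 it was lower with dox, at 14.1 and 11.2 RPKM against 36.7 and 31.6. In siControl its libraries overlapped, at 5.96 and 4.63 RPKM with dox and 5.73 and 6.74 without. The adipocyte sum was highest in siGcn5 without dox, at 17.9 to 27.0 RPKM, nearly all of it Fabp4 (17.8 and 27.0). Summed over their lists, 6 endothelial, 6 blood and 4 adipocyte markers reached at most 27.0 RPKM in any library, with 1 blood marker at 0 in each group. The sums of the 5 skeletal muscle markers ranged from 41.2 to 266 RPKM, and those of the 4 neural markers found, of 5, from 14.0 to 157 RPKM. Each sum was mostly a single gene, Acta1 for muscle (37.8 to 256 RPKM) and Tubb3 for neural (13.9 to 157 RPKM). Myod1, Myog, Sox10, Gfap and Neurod1 were near the floor, so these sums do not show list-wide shifts. The muscle sums were highest in siMyc with dox, and the neural sums of siMyc with dox (128 to 157) overlapped those of siControl with dox (146 to 152). The part of these shifts in the results below was not tested. The siGcn5 libraries stood apart from each other: all 38 members were higher in replicate 2 than in replicate 1, with dox (median log2 0.78) and without (median 0.57), and so was Kat2a. Replicate 2 was also higher for 36 members in siMyc with dox (median 0.25) and 36 in siControl with dox (median 0.20). It was higher for 24 members in siMyc without dox (median 0.07) and for only 5 in siControl without dox (median -0.09). Over all genes tested, 42.3% to 48.0% were higher in replicate 2, by group.

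The mitosis genes were highest in siControl cells given dox. Against siControl they were far lower with siMyc under dox, and with siGcn5 both with and without dox. In siMyc without dox they lay nearer to siControl without dox. Each of the 38 members had its highest group mean in siControl with dox and its lowest in siGcn5 without dox. Summed over the members, RPKM was 438 and 519 with dox and 538 and 557 without dox in siMyc cells, 324 and 594 with dox and 133 and 227 without dox in siGcn5 cells, and 1277 and 1462 with dox and 721 and 670 without dox in siControl cells. Thus the siControl libraries with dox lay above the other 10, and the siGcn5 libraries without dox below them. In bulk RNA of this kind, fewer dividing cells and less of these RNAs per cell cannot be told apart. Log2 differences below were taken on log2(RPKM + 1), where changes of low genes come out too small, and adjusted p-values are limma's, Benjamini-Hochberg corrected over 13175 genes, with a call at under 0.05. The spread of each gene was estimated over all 6 groups together. The far-apart siGcn5 replicates therefore enter the SE of every comparison, also of those between siMyc and siControl libraries. A member that did not pass may thus have close replicates in the groups compared. Conversely, the closer siControl and siMyc replicates enter the SE of siGcn5 comparisons, whose p-values may therefore be too small.

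**Figure D2:**
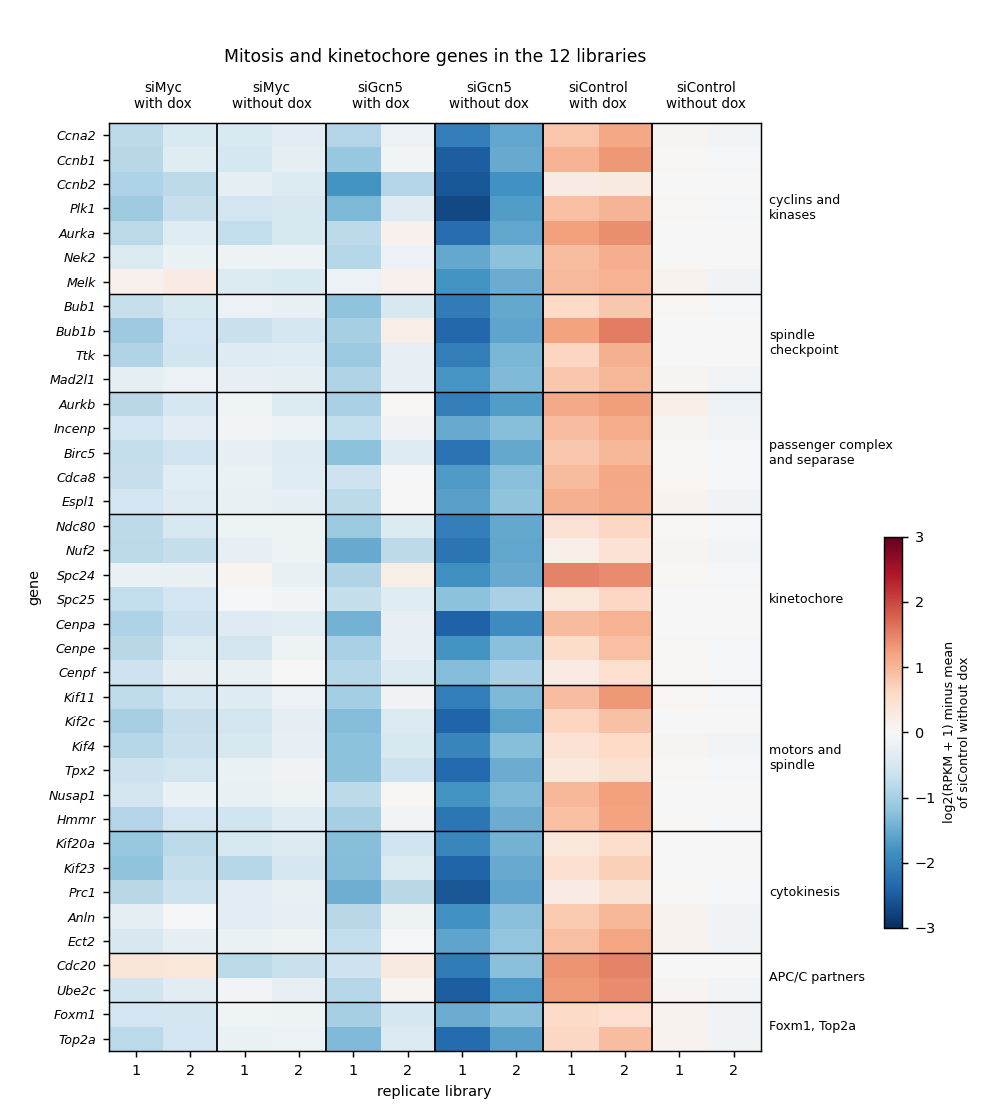
Level of each member (rows, by role) in the 12 libraries (columns, by group and replicate), as log2(RPKM + 1) minus the mean of siControl without dox; red is higher and blue lower. The siControl libraries with dox are red throughout, the siGcn5 libraries without dox are the darkest blue, and Melk and Cdc20 are the rows that are not blue in siMyc with dox.

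The siControl cells were compared with 2 days of dox and without dox. Dox was added in embryonic stem cell medium, and the medium without dox is not stated for RNA libraries. Effects of the induced factors, the medium and time in culture therefore cannot be told apart. Of 38 members, 30 rose and none fell (46.1% of all 13175 genes were called higher, 27.9% lower and 74.0% either way). The median member stood at 197% of its level without dox, from 121% for Ccnb2 to 301% for Spc24. The median log2 difference was 0.94, against 0.17 over all genes tested. Both libraries with dox lay above both without dox for all 38, which held for 53.9% of all genes. The largest rises on the log2 scale were of Spc24, Cdc20, Bub1b, Ube2c and Aurka. The 8 members that did not pass were Ccnb2, Nuf2, Cenpf, Kif4, Tpx2, Kif20a, Kif23 and Prc1, at log2 0.26 (Ccnb2) to 0.60 (Kif23), with adjusted p of 0.0874 to 0.404. They include 3 of the 5 cytokinesis genes. Without siControl replicate 2 with dox 19 members were called. Scaling moved the count to 22 (median-ratio) and 21 (quantile), with members' median log2 0.77 and 0.74, and the share of all calls that were rises was 52.2% and 49.9%, against 62.3% as deposited; the median of all genes moved to 0.03 and -0.000356, against 0.17.

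Under dox the whole set was lower with siMyc than with siControl. All 38 members fell against siControl with dox (37.1% of all genes were called lower, 37.7% higher and 74.9% either way), and the siMyc libraries lay below the siControl libraries for each, as 43.2% of all genes did (44.9% lay above). The median member stood at 34.6% of its siControl level, from 19.9% for Bub1b to 53.8% for Melk. The median log2 difference was -1.46 (range -2.20 to -0.81), against 0.02 over all genes tested. Cenpf, at a mean of 1.43 RPKM with siMyc and dox, had the smallest log2 difference but stood at 44.2% of its siControl level. These calls held for all members tested in each alternative, including each left-out library.

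Without dox, 1 member passed the test for siMyc, with the spread shared by all 6 groups. Melk was called lower (log2 -0.44, SE 0.13, limma adjusted p = 0.0357), and none was called higher (23.5% of all genes were called, 10.7% lower and 12.8% higher). The median member stood at 80.4% of its siControl level, and log2 differences ran -0.74 to -0.07, with a median of -0.29 against 0.02 over all genes tested. Every member's difference was below 0. The siMyc libraries lay below the siControl libraries for 34 members and overlapped them for 4, and 31.4% of all genes showed such a fall. At an unadjusted p under 0.05 there were 2 members, Melk and Cdc20; voom on the recovered reads also called 2, and no filter on low values called 0. The call of Melk was lost without any of 6 libraries, the 4 compared and both siControl libraries with dox (adjusted p 0.0219 to 0.222 over the 12 left-out libraries). The 95% intervals of single members reached from -1.38 to 0.53.

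Every member was lower with siGcn5 than with siControl, in cells with dox and without. Without dox all 38 fell against siControl without dox (20.4% of all genes were called lower, 36.9% higher and 57.3% either way), to a median of 23.9% of the siControl level (18.9% to 43.5%). The median log2 difference was -1.76 (range -2.19 to -1.10), against 0.11 over all genes tested. By RPKM, Ccnb2 fell most, to 18.9% of siControl, and Spc25 least, to 43.5%. With dox all 38 fell against siControl with dox (24.9% of all genes were called lower, 31.4% higher and 56.3% either way), to a median of 33.1% (26.7% to 47.5%), at a median log2 of -1.51 (range -1.84 to -0.99) against 0.05 over all genes tested. In both settings the siGcn5 libraries lay below the siControl libraries for each member (30.9% of all genes did so without dox and 35.4% with dox, and 51.7% and 43.2% lay above), although replicates 1 and 2 of siGcn5 were far apart. All calls held with either siGcn5 replicate left out. Among all genes, the share of calls that were higher without dox was 49.5% after median-ratio scaling and 54.0% after quantile normalization, against 64.4% as deposited, and the members' 38 calls were unchanged by both.

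**Figure D3:**
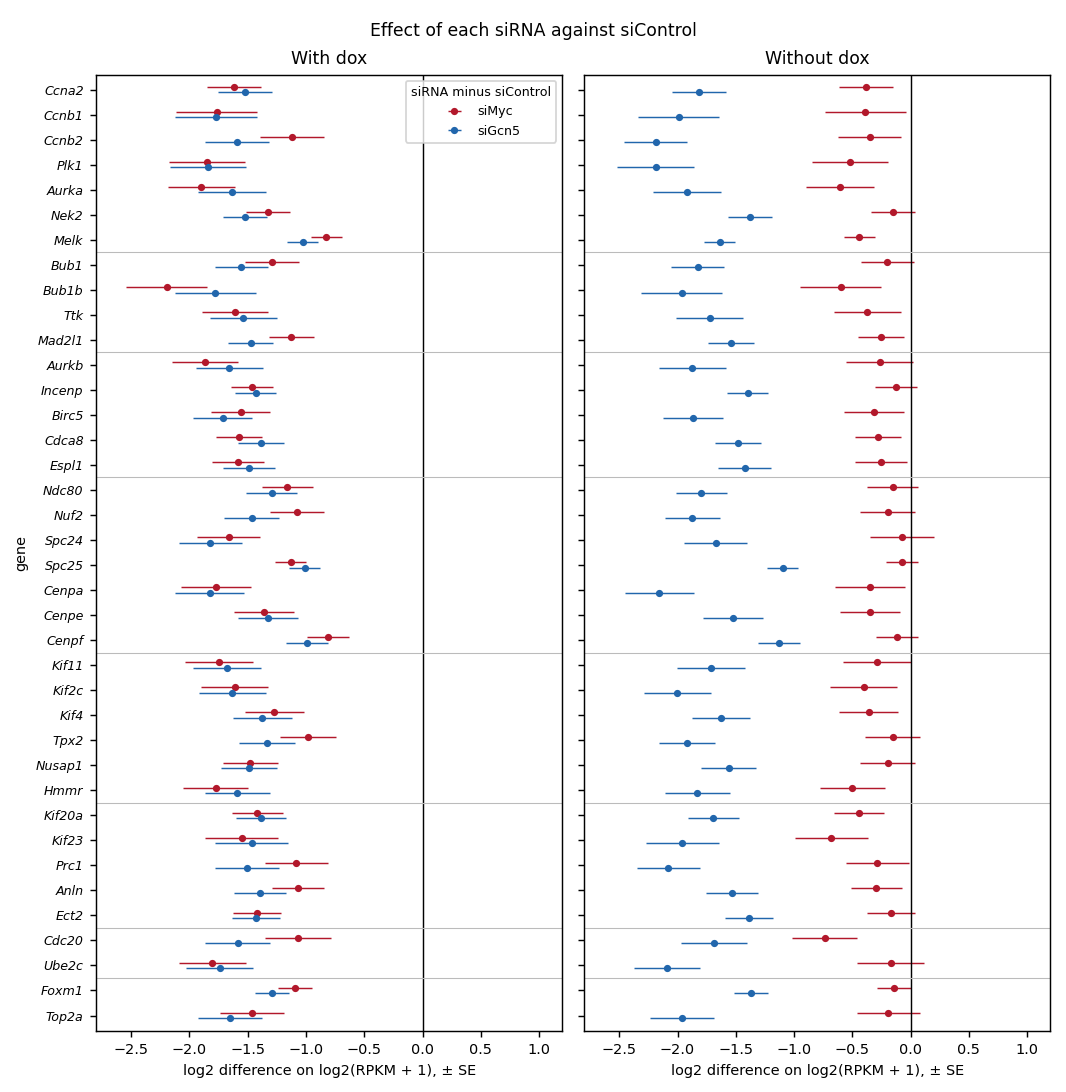
Difference of siMyc (red) and siGcn5 (blue) from siControl for each member, with dox (left) and without dox (right), as limma's log2 difference on log2(RPKM + 1) ± SE, from 2 libraries a group. With dox all points lie between -2.20 and -0.81; without dox the siMyc points lie between -0.74 and -0.07 and the siGcn5 points between -2.19 and -1.10.

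Few members passed the test for dox in siMyc cells. Here 2 members rose with dox, Cdc20 (log2 1.08, SE 0.28, limma adjusted p = 0.00976) and Melk (log2 0.62, SE 0.13, limma adjusted p = 0.00306), 2 fell, Spc25 (log2 -0.58, SE 0.13, limma adjusted p = 0.00538) and Foxm1 (log2 -0.42, SE 0.15, limma adjusted p = 0.0400), and 34 did not pass (28.9% of all genes were called higher, 15.9% lower and 44.8% either way). The median member with siMyc and dox stood at 78.1% of its level in siMyc without dox, with a median log2 of -0.33 against 0.08 over all genes tested. Both libraries with dox lay below both without dox for 24 members, overlapped for 12 and lay above for Cdc20 and Melk; 28.2% of all genes showed such a fall and 45.0% such a rise. Foxm1's call was lost without any of 6 libraries (the 4 siMyc libraries and both siControl libraries with dox; adjusted p 0.00746 to 0.127 over the 12 left-out libraries) and with no filter on low values (0.0717). The Cdc20 call ended without siMyc replicate 1 without dox (0.0534). The count of members called lower was 1 to 8 with a library left out, and 6 with quantile normalization. Of all calls, 54.7% were rises after median-ratio scaling and 40.2% after quantile normalization, against 64.5% as deposited.

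In siGcn5 cells all 38 members rose with dox (36.0% of all genes were called higher, 22.4% lower and 58.4% either way), and the libraries did not overlap for any of them (45.7% of all genes lay higher in both libraries with dox and 32.0% lower). The median member with siGcn5 and dox stood at 248% of its level in siGcn5 without dox, and the median log2 was 1.05 (range 0.50 to 1.71) against 0.08 over all genes tested. Even so, the mean in siGcn5 with dox was below that in siControl without dox for each member. For some members, single libraries crossed. Aurka had 11.7 and 23.1 RPKM in siGcn5 with dox, against 20.9 and 20.9 in siControl without dox. The count of rises was 24 without siGcn5 replicate 1 without dox and 23 without siGcn5 replicate 2 with dox. In all genes the share of calls that were rises was 49.2% after median-ratio scaling, where 37 members were called, and 43.0% after quantile normalization, where 34 were, against 61.6% as deposited.

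Tested directly, the dox response, a signed log2 difference, was lower in siMyc than in siControl cells for 30 members and higher for none. Of all genes, 29.3% had a lower response and 24.8% a higher one, and 54.1% were called. A lower response can be one of the other sign: all 38 were above 0 in siControl and 33 were below 0 in siMyc. After median-ratio scaling 25 members were called, and 55.3% of all calls were for a higher response, against 45.8% as deposited. The median interaction was log2 -1.22 (range -1.63 to -0.33), against -0.03 over all genes tested. Ube2c, Aurkb, Bub1b and Spc24 had the largest differences in response, of log2 -1.63, -1.60, -1.60 and -1.59. Ccnb2, Melk, Kif4, Tpx2, Kif23, Prc1, Anln and Cdc20 did not pass, and Cdc20 had the smallest difference, log2 -0.33 (95% interval -1.22 to 0.55). The count was 12 without siControl replicate 2 with dox, 14 without siMyc replicate 1 with dox, 16 without siControl replicate 2 without dox and 18 without siMyc replicate 2 without dox, and it was 18 with no filter on low values. Between siGcn5 and siControl cells the response differed for Melk alone, which rose more in siGcn5 (log2 0.61, SE 0.19, limma adjusted p = 0.0371; 95% interval 0.20 to 1.02; 11.4% of all genes were called higher, 14.5% lower and 25.9% either way). The call of Melk ended without any of 8 libraries (adjusted p 0.0190 to 0.125 over the 12 left-out libraries). The members' median was 0.22, against -0.08 over all genes, but -0.18 without siGcn5 replicate 2 with dox. The 95% intervals of members reached from -0.999 to 1.48. Of all calls for siGcn5, 57.0% were positive after median-ratio scaling, against 44.0% as deposited. Both interactions use the same siControl libraries.

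**Figure D4:**
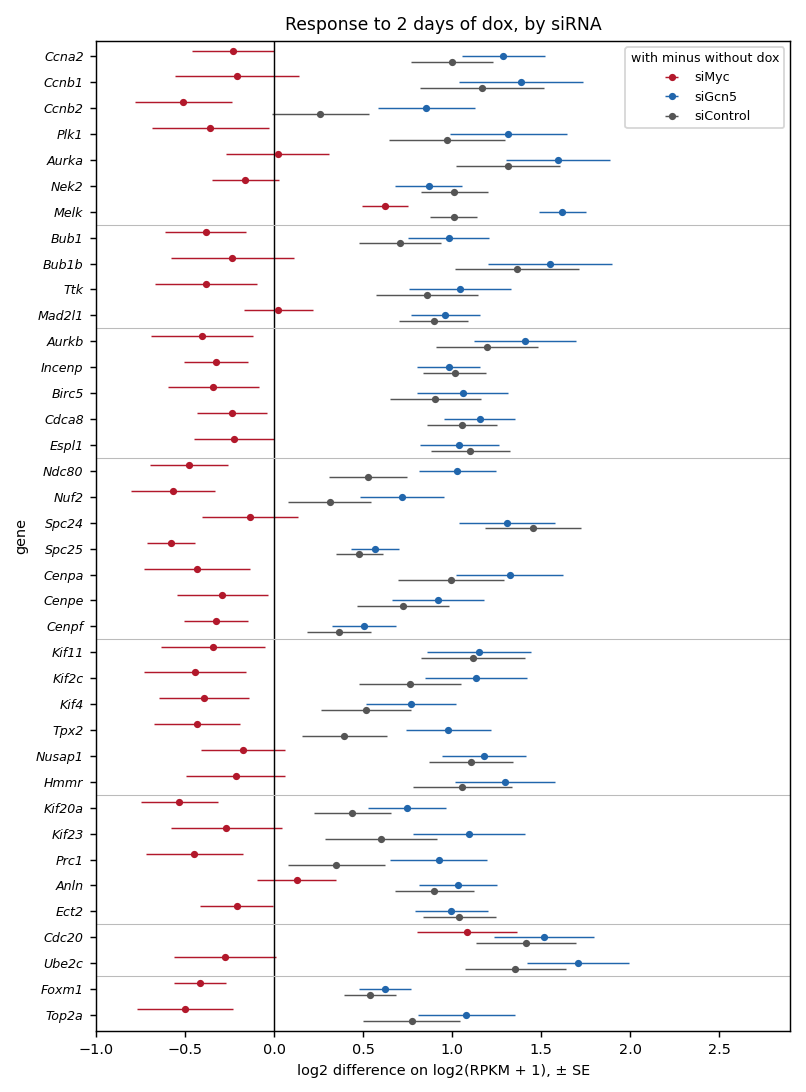
Response of each member to 2 days of dox in siMyc (red), siGcn5 (blue) and siControl (grey) cells, as limma's log2 difference on log2(RPKM + 1), with minus without dox, ± SE, from 2 libraries a group. The siGcn5 points lie between 0.50 and 1.71 and the siControl points between 0.26 and 1.45, while 33 of the 38 siMyc points lie below 0 and those of Cdc20 and Melk are the highest, at 1.08 and 0.62.

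siMyc and siGcn5 cells were also compared with each other. With dox no member was called in either direction with limma (27.3% of all genes were called higher in siMyc, 38.6% lower and 65.9% either way), none had an unadjusted p under 0.05, and voom on recovered reads called none. The median log2 difference, siMyc minus siGcn5, was 0.02, against -0.09 over all genes tested, and the 95% intervals of single members reached from -1.19 to 1.14. Libraries overlapped for 35 members, and Tpx2, Prc1 and Cdc20 lay higher in both siMyc libraries; 34.2% of all genes did so, and 46.4% lay lower. Each siGcn5 replicate moved this count. Without siGcn5 replicate 2, 12 members were called higher in siMyc, and without replicate 1, 6 were called lower. Without dox all 38 members were higher in siMyc than in siGcn5 (22.2% of all genes were called higher, 36.5% lower and 58.7% either way). The median member in siMyc stood at 325% of its siGcn5 level, with log2 differences of 0.95 to 1.92 (median 1.36, against -0.11 over all genes tested) and no overlap between libraries, as for 31.4% of all genes, while 49.6% lay lower. Of all calls, the share higher in siMyc was 53.6% with dox and 49.1% without dox after median-ratio scaling, against 41.4% and 37.8% as deposited.

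Among the cyclins and mitotic kinases, the 7 members were Ccna2 and the B-type cyclins Ccnb1 and Ccnb2, which activate cyclin-dependent kinases, Plk1, which acts at centrosomes and kinetochores, Aurka, which matures the spindle poles, Nek2, which separates centrosomes, and Melk, a kinase of the AMPK-related family. All 7 fell with siMyc and dox (log2 -1.90 to -0.82), with siGcn5 and dox (-1.84 to -1.03) and with siGcn5 without dox (-2.19 to -1.38), and 6 rose with dox in siControl. Beside these counts and those by role below, 37.1% of all genes fell with siMyc and dox. With siGcn5, 24.9% of all genes fell with dox and 20.4% without. With dox in siControl 46.1% rose, and 29.3% had a lower siMyc by dox interaction. RPKM of Aurka was 11.6 and 16.0 with dox and 12.2 and 14.7 without dox in siMyc cells, 11.7 and 23.1 with dox and 3.53 and 6.43 without dox in siGcn5 cells, and 50.2 and 56.8 with dox and 20.9 and 20.9 without dox in siControl cells. The siControl libraries with dox were far above the rest, the siMyc groups overlapped, and siGcn5 replicate 2 with dox lay above siControl without dox while replicate 1 lay below it. Aurka differed from siControl by log2 -1.90 (SE 0.29, limma adjusted p = 0.000159) in siMyc with dox, log2 -1.64 (SE 0.29, limma adjusted p = 0.000996) in siGcn5 with dox and log2 -1.92 (SE 0.29, limma adjusted p = 0.000349) in siGcn5 without dox, and its rise with dox in siControl was log2 1.31 (SE 0.29, limma adjusted p = 0.00201). RPKM of Melk was 8.22 and 9.10 with dox and 5.36 and 5.17 without dox in siMyc cells, 6.55 and 8.29 with dox and 1.45 and 2.05 without dox in siGcn5 cells, and 15.8 and 16.4 with dox and 8.15 and 6.89 without dox in siControl cells. Unlike most members, Melk was higher in both siMyc libraries with dox than in those without, and it lay just above siControl without dox there. Its fall with siMyc and dox was log2 -0.82 (SE 0.13, limma adjusted p = 0.000206), to 53.8% of the siControl level. Its rise with dox was log2 1.01 (SE 0.13, limma adjusted p = 5.4e-05) in siControl and log2 1.62 (SE 0.13, limma adjusted p = 5.77e-06) in siGcn5. Ccnb2 showed the smallest dox response in siControl, with 24.6 and 25.1 RPKM with dox and 20.8 and 20.3 without, and the libraries did not overlap. Plk1 reached 3.48 and 8.06 RPKM in siGcn5 without dox, against 28.9 and 27.1 in siControl (log2 -2.19, SE 0.33, limma adjusted p = 0.000325).

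The spindle checkpoint was represented by the kinases Bub1 and Ttk (Mps1), by Bub1b (BubR1), and by Mad2l1 (Mad2), which with BubR1 binds and blocks Cdc20. All 4 rose with dox in siControl (log2 0.71 to 1.36) and fell with siMyc and dox (-2.20 to -1.13) and with siGcn5 with dox (-1.78 to -1.48) and without (-1.96 to -1.54). RPKM of Bub1b was 5.85 and 8.74 with dox and 8.14 and 9.11 without dox in siMyc cells, 6.25 and 15.4 with dox and 1.86 and 3.86 without dox in siGcn5 cells, and 32.3 and 41.0 with dox and 13.5 and 13.6 without dox in siControl cells. The siControl libraries with dox stood well above the rest, the siMyc groups overlapped, and the siGcn5 libraries with dox lay on either side of siControl without dox. Its fall with siMyc and dox, log2 -2.20 (SE 0.35, limma adjusted p = 0.000199), to 19.9% of siControl, was the largest of the 38 members. With siGcn5 and dox the difference was log2 -1.78 (SE 0.35, limma adjusted p = 0.00173), and the rise with dox in siControl was log2 1.36 (SE 0.35, limma adjusted p = 0.00469). In siMyc cells Mad2l1 had 14.8 and 15.9 RPKM with dox and 15.1 and 15.0 without. Its dox response there, log2 0.02 (SE 0.19, limma adjusted p = 0.938), did not pass, and the difference of that response from siControl was log2 -0.87 (SE 0.27, limma adjusted p = 0.0216).

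The chromosomal passenger complex corrects faulty kinetochore attachments. It consists of the kinase Aurkb, the scaffold Incenp, survivin (Birc5) and borealin (Cdca8), and the list adds separase, Espl1, the protease that opens cohesin. All 5 rose with dox in siControl (log2 0.90 to 1.20) and fell with siMyc and dox (-1.87 to -1.46) and with siGcn5 with dox (-1.71 to -1.38) and without (-1.87 to -1.40). RPKM of Aurkb was 5.60 and 7.31 with dox and 9.86 and 7.87 without dox in siMyc cells, 4.96 and 11.3 with dox and 1.79 and 2.71 without dox in siGcn5 cells, and 25.0 and 27.1 with dox and 12.3 and 9.49 without dox in siControl cells. Both siMyc libraries with dox were below those without, and the siMyc libraries without dox overlapped siControl without dox. The fall of Aurkb was log2 -1.87 (SE 0.29, limma adjusted p = 0.000160) in siMyc with dox and log2 -1.66 (SE 0.29, limma adjusted p = 0.000847) in siGcn5 with dox, and its rise with dox was log2 1.20 (SE 0.29, limma adjusted p = 0.00326) in siControl. The interaction of siMyc with dox was called for all 5, at log2 -1.60 to -1.25. Cdca8 was the most abundant of the 5 in siMyc and siControl with and without dox, with 14.9 and 19.2 RPKM in siMyc with dox and 48.3 and 56.5 in siControl with dox, and Espl1 the least, with 2.59 and 3.12 RPKM in siMyc with dox and 10.2 and 10.9 in siControl with dox.

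At the kinetochore, Ndc80, Nuf2, Spc24 and Spc25 form the Ndc80 complex, which grips microtubules. Cenpa is the histone H3 variant that marks centromeres, Cenpe is a kinetochore kinesin and Cenpf a large coiled-coil protein. Of these 7, 5 rose with dox in siControl and Nuf2 and Cenpf did not pass (all 7 at log2 0.31 to 1.45), and all fell with siMyc and dox (-1.77 to -0.81) and with siGcn5 with dox (-1.83 to -0.99) and without (-2.15 to -1.10). RPKM of Spc24 was 5.44 and 5.38 with dox and 6.84 and 5.33 without dox in siMyc cells, 2.96 and 7.37 with dox and 1.07 and 1.61 without dox in siGcn5 cells, and 19.8 and 18.9 with dox and 6.76 and 6.08 without dox in siControl cells. The siMyc libraries without dox overlapped siControl without dox, those with dox lay just below it, and the siGcn5 libraries without dox were lowest. Its rise with dox in siControl, log2 1.45 (SE 0.27, limma adjusted p = 0.000659), was the largest of the members, and the fall with siMyc and dox was log2 -1.66 (SE 0.27, limma adjusted p = 0.000244). RPKM of Cenpa was 10.1 and 12.3 with dox and 15.0 and 15.8 without dox in siMyc cells, 6.84 and 16.5 with dox and 2.87 and 4.67 without dox in siGcn5 cells, and 38.9 and 42.1 with dox and 20.0 and 19.6 without dox in siControl cells. The siMyc libraries with dox were below those without, and no siMyc library reached siControl without dox. Cenpa differed from siControl by log2 -1.77 (SE 0.30, limma adjusted p = 0.000307) with siMyc and dox and by log2 -2.15 (SE 0.30, limma adjusted p = 0.000205) with siGcn5 without dox. Spc25, which fell with dox in siMyc, had 8.77 and 9.88 RPKM in siMyc with dox and 14.4 and 14.4 without, and these last values were close to the 15.2 and 15.2 RPKM of siControl without dox. Within the Ndc80 complex the siControl responses to dox were, for Spc24, log2 1.45, for Ndc80 0.53, for Spc25 0.48 and for Nuf2 0.31 (limma adjusted p = 0.249). Cenpf was the lowest member in each group, at 1.43 ± 0.420 RPKM in siMyc with dox and 3.24 ± 0.532 in siControl with dox (SD, n = 2).

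Of the motors and spindle proteins, Kif11 (Eg5) pushes the spindle poles apart, Kif2c (MCAK) depolymerises microtubules, Kif4 is a chromokinesin, Tpx2 activates Aurora A, and Nusap1 and Hmmr bind spindle microtubules. All 6 fell with siMyc and dox (log2 -1.78 to -0.98) and with siGcn5 with dox (-1.68 to -1.33) and without (-2.002 to -1.56); 4 rose with dox in siControl, and Kif4 and Tpx2 did not pass. RPKM of Hmmr was 7.65 and 9.62 with dox and 9.35 and 10.997 without dox in siMyc cells, 6.93 and 14.0 with dox and 2.53 and 4.58 without dox in siGcn5 cells, and 28.7 and 35.3 with dox and 15.2 and 14.4 without dox in siControl cells. The siMyc groups overlapped and all 4 of their libraries were below siControl without dox. The fall of Hmmr was log2 -1.78 (SE 0.28, limma adjusted p = 0.000189) with siMyc and dox and log2 -1.59 (SE 0.28, limma adjusted p = 0.000925) with siGcn5 and dox. RPKM of Kif11 was 4.97 and 6.12 with dox and 6.69 and 7.90 without dox in siMyc cells, 3.99 and 8.38 with dox and 1.40 and 2.96 without dox in siGcn5 cells, and 18.2 and 24.0 with dox and 9.57 and 8.65 without dox in siControl cells. Here the siMyc libraries with dox lay below those without. Kif11 rose with dox in siControl (log2 1.12, SE 0.29, limma adjusted p = 0.00523) and was lower with siMyc and dox (log2 -1.75, SE 0.29, limma adjusted p = 0.000280). Tpx2 was the most abundant of the 6 in siMyc and siControl with and without dox, with 42.1 and 46.6 RPKM in siControl with dox and 34.4 and 32.5 without dox.

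For cytokinesis, Kif20a (MKLP2) carries the passenger complex to the midzone, Kif23 (MKLP1) is the motor of centralspindlin, Prc1 bundles midzone microtubules, Ect2 activates RhoA, and Anln ties the contractile ring to the membrane. All 5 fell with siMyc and dox (log2 -1.55 to -1.07) and with siGcn5 with dox (-1.50 to -1.39) and without (-2.08 to -1.39). Anln and Ect2 alone among them passed as higher with dox in siControl, where 46.1% of all genes did. RPKM of Kif23 was 6.49 and 9.52 with dox and 8.52 and 11.02 without dox in siMyc cells, 5.99 and 11.7 with dox and 2.26 and 4.97 without dox in siGcn5 cells, and 23.1 and 27.0 with dox and 16.3 and 16.0 without dox in siControl cells. Kif23 in siControl was higher in both libraries with dox than in those without, a difference that missed the threshold (log2 0.60, SE 0.31, limma adjusted p = 0.106). It fell with siMyc and dox (log2 -1.55, SE 0.31, limma adjusted p = 0.00106), and the siMyc groups overlapped. RPKM of Ect2 was 8.22 and 9.77 with dox and 10.3 and 10.7 without dox in siMyc cells, 6.82 and 11.5 with dox and 3.33 and 4.67 without dox in siGcn5 cells, and 23.2 and 28.4 with dox and 12.9 and 11.1 without dox in siControl cells. Ect2 rose with dox in siControl (log2 1.04, SE 0.21, limma adjusted p = 0.000982) and in siGcn5 (log2 0.99, SE 0.21, limma adjusted p = 0.00221). In siMyc its libraries with dox lay below those without, a difference of log2 -0.21 (SE 0.21, limma adjusted p = 0.439). Prc1, whose promoter is shown, had 4.55 and 9.86 RPKM in siGcn5 without dox, against 32.8 and 30.8 in siControl without dox (log2 -2.08, SE 0.27, limma adjusted p = 0.000153).

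Cdc20 activates the APC/C and Ube2c is the enzyme that passes it ubiquitin. They were the most abundant members in siControl with and without dox. RPKM of Ube2c was 39.8 and 48.6 with dox and 56.5 and 50.7 without dox in siMyc cells, 32.8 and 64.1 with dox and 10.1 and 17.7 without dox in siGcn5 cells, and 149 and 163 with dox and 63.5 and 57.4 without dox in siControl cells. The siControl libraries with dox lay above all other libraries, and the siMyc libraries with dox were below those without. Ube2c fell with siMyc and dox (log2 -1.80, SE 0.29, limma adjusted p = 0.000199) and with siGcn5 without dox (log2 -2.09, SE 0.29, limma adjusted p = 0.000188), and it rose with dox in siControl (log2 1.35, SE 0.29, limma adjusted p = 0.00146). RPKM of Cdc20 was 61.6 and 61.1 with dox and 27.1 and 29.9 without dox in siMyc cells, 31.02 and 58.4 with dox and 10.4 and 19.4 without dox in siGcn5 cells, and 124 and 136 with dox and 48.0 and 48.2 without dox in siControl cells. Both siMyc libraries with dox were above both siMyc libraries without dox and above siControl without dox, and yet below siControl with dox. In siMyc without dox Cdc20 was below siControl (log2 -0.74, SE 0.28, limma adjusted p = 0.0840), a difference that did not pass. With dox it fell to 47.2% of siControl in siMyc (log2 -1.07, SE 0.28, limma adjusted p = 0.00542), while Ube2c fell to 28.3%. Its rise with dox was log2 1.42 (SE 0.28, limma adjusted p = 0.000994) in siControl and log2 1.52 (SE 0.28, limma adjusted p = 0.00117) in siGcn5.

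**Figure D5:**
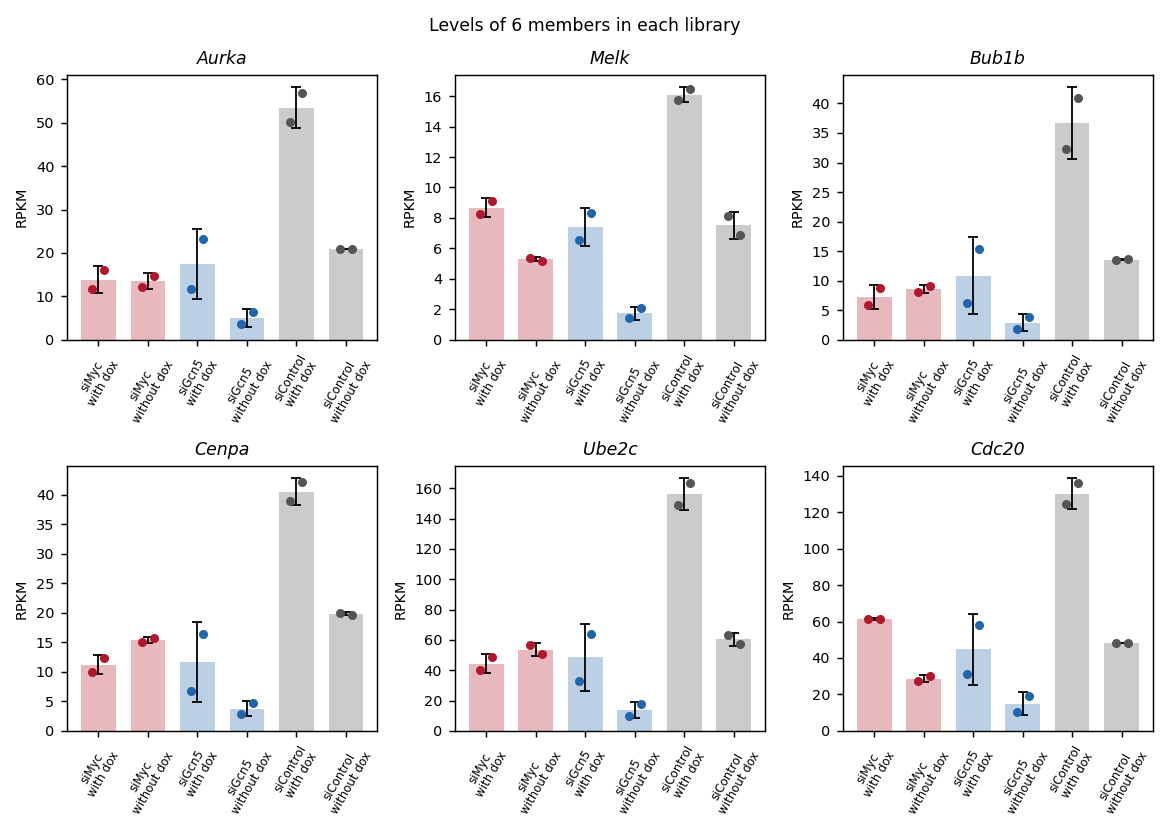
RPKM of Aurka, Melk, Bub1b, Cenpa, Ube2c and Cdc20 in each library (points), with the group mean (bar) and SD (error bar, n = 2). siControl with dox is highest and siGcn5 without dox lowest in all 6 panels, and Melk and Cdc20 are higher in siMyc with dox than without.

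Foxm1 is the transcription factor that switches on many of the other members, and Top2a untangles DNA before chromosomes part. RPKM of Foxm1 was 8.04 and 8.18 with dox and 11.2 and 11.1 without dox in siMyc cells, 5.72 and 8.42 with dox and 3.77 and 4.61 without dox in siGcn5 cells, and 18.9 and 18.01 with dox and 13.5 and 11.4 without dox in siControl cells. Its siMyc libraries with dox lay below those without. Foxm1 fell with siMyc and dox (log2 -1.09, SE 0.15, limma adjusted p = 5.93e-05), with siGcn5 and dox (log2 -1.29, SE 0.15, limma adjusted p = 9.65e-05) and with siGcn5 without dox (log2 -1.37, SE 0.15, limma adjusted p = 4.9e-05), and it rose with dox in siControl (log2 0.54, SE 0.15, limma adjusted p = 0.00672). RPKM of Top2a was 20.2 and 24.3 with dox and 31.7 and 31.9 without dox in siMyc cells, 14.0 and 26.5 with dox and 6.58 and 11.2 without dox in siGcn5 cells, and 56.4 and 70.0 with dox and 39.1 and 33.9 without dox in siControl cells. The siMyc libraries with dox were again below those without, by log2 -0.50 (SE 0.27, limma adjusted p = 0.163), which did not pass. Top2a fell with siMyc and dox (log2 -1.46, SE 0.27, limma adjusted p = 0.000609) and rose with dox in siControl (log2 0.77, SE 0.27, limma adjusted p = 0.0248).

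Other genes of mitosis, a list of 109 symbols of which 105 were tested, were counted for comparison. With dox in siControl 79 rose and 5 fell (median log2 0.60), where 46.1% of all genes rose and 27.9% fell. With siMyc and dox 4 rose and 84 fell (median -0.94), where 37.7% of all genes rose and 37.1% fell. With siGcn5 and dox 6 rose and 83 fell (median -1.02), where 31.4% of all genes rose and 24.9% fell, and with siGcn5 without dox 14 rose and 66 fell (median -0.91), where 36.9% rose and 20.4% fell. With siMyc without dox 3 rose and 5 fell (median -0.13), where 12.8% of all genes rose and 10.7% fell. Of 14 further regulators, 12 fell with siMyc and dox and all 14 with siGcn5 and dox, among them Gtse1, which restrains p53 in G2, with a mean of 11.8 RPKM in siMyc with dox, against 47.3 in siControl with dox (log2 -1.92, SE 0.10, limma adjusted p = 2.16e-07), and Cdk1 itself, with a mean of 18.8 RPKM in siMyc with dox, against 50.3 in siControl with dox (log2 -1.37, SE 0.26, limma adjusted p = 0.000775). Securin (Pttg1) stood at log2 -1.55 in siMyc and the APC/C inhibitor Fbxo5 (Emi1) at -1.29. In siGcn5 with dox the phosphatase Cdc25b stood at -1.60, the kinase Pbk at -1.57, Fbxo5 at -1.51 and Cdk1 at -1.48. Of 25 other kinetochore genes, 23 fell with siMyc and 20 with siGcn5 under dox, with Cenpw at log2 -1.40, Zwilch at -1.36 and Casc5 (Knl1) at -1.36 in siMyc, and Pmf1 at -1.49, Cenpm at -1.38, Cenph at -1.38 and Casc5 at -1.32 in siGcn5.

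Of 23 other spindle and cytokinesis genes, 22 fell with siMyc and dox and 21 with siGcn5 and dox. Ckap2, a spindle protein, had a mean of 12.3 RPKM in siMyc with dox, against 54.4 in siControl with dox (log2 -2.09, SE 0.28, limma adjusted p = 6.49e-05), and the kinesins Kif18b, Kif15 and Kifc1 stood at log2 -1.83, -1.78 and -1.71. In siGcn5 with dox Kif15 stood at -1.54, Kif22 at -1.53, Troap at -1.53 and Kif18b at -1.48. Of 18 condensin and cohesin genes, 16 fell with either siRNA under dox. The condensin subunit Ncapd2 had a mean of 9.45 RPKM in siMyc with dox, against 40.2 in siControl with dox (log2 -1.99, SE 0.26, limma adjusted p = 5.63e-05) and a mean of 12.1 RPKM in siGcn5 with dox, against 40.2 in siControl with dox (log2 -1.73, SE 0.26, limma adjusted p = 0.000430). The condensin subunits Ncapg and Ncaph were at -1.61 and -1.50 in siMyc and at -1.61 and -1.36 in siGcn5, sororin (Cdca5) at -1.35 in siMyc and Smc2 at -1.41 in siGcn5. The 14 genes of the APC/C and its partners had smaller medians. Under dox 6 fell and 3 rose with siMyc (median -0.17), and 7 fell and 2 rose with siGcn5 (median -0.19), where 37.1% of all genes fell with siMyc and 24.9% with siGcn5. Cdc23 was at -1.03, Ube2s at -1.02, Anapc1 at -0.66 and Anapc13 at 0.56 in siMyc, and Cdc16 at -1.09, Ube2s at -0.83, Anapc5 at -0.60 and Anapc13 at 0.52 in siGcn5. Of 11 DREAM, MuvB and NF-Y genes, 5 fell and 0 rose with siMyc and 5 fell and 2 rose with siGcn5 under dox, beside the same shares of all genes. B-Myb (Mybl2), which joins MuvB to switch the late cell cycle genes on, had a mean of 3.94 RPKM in siMyc with dox, against 23.5 in siControl with dox (log2 -2.32, SE 0.26, limma adjusted p = 1.65e-05) and a mean of 7.22 RPKM in siGcn5 with dox, against 23.5 in siControl with dox (log2 -1.65, SE 0.26, limma adjusted p = 0.000498). Lin9, of the MuvB core, was at -1.29 in siMyc and -0.87 in siGcn5, Nfyb at -1.07 and E2f4 at -0.81 in siMyc, and p107 (Rbl1) at -0.81 and Nfyc at -0.51 in siGcn5. The siMyc and siGcn5 values with dox share the same siControl libraries.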

How the data were processed

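RNA-seq of 12 libraries was analysed. The authors deposited 1 RPKM value per gene symbol and library. The submitters' processing notes name mm9 and, among tools, Bowtie 0.12.8, TopHat2 2.0.9, affy, edgeR and HTSeq. Their roles, the annotation and how strand was handled are not stated. RPKM values were used as deposited, so changes in total RNA per cell are not measured, and reads of antisense neighbours may be counted in. Whole reads were recovered from RPKM steps for all 20788 genes with a value, within 0.05 read, and served for depth and for limma's voom. Genes with RPKM of at least 1 in at least 2 libraries (13175) were tested on log2(RPKM + 1) with limma 3.58.1 (trend option, R 4.3.3), 1 term per group over all 12 libraries (6 residual and 4.17 prior degrees of freedom), two-sided, with Benjamini-Hochberg adjusted p under 0.05. The fit was tested on simulated data with independent noise and the same spread in every group. That test thus does not cover groups whose replicates stand far apart, as in siGcn5. Intervals are 95%, with 2 libraries a group and 65545587 to 188131691 gene reads a library. The members and all gene lists were chosen with earlier results of these data known.

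Values in each library were printed for the member of each role with the largest absolute log2 difference in siMyc with dox, and with dox in siControl, and for members called against the others' direction. Of further lists, up to 4 called genes with the largest change in siMyc with dox and in siGcn5 with dox were named, apart from 1 that is not reported here. Alternatives were a pseudocount of 0.1, no low-value filter, a mean RPKM of at least 5 (which leaves 36 members), median-ratio scaling, quantile normalization, voom, a replicate block and leaving out each library.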

Additional observations from a re-analysis of the deposited data

Results flagged for a closer look

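The response to dox in siMyc cells differed from that in siControl cells for 30 members, by the test of the interaction itself. The signed log2 response was lower in siMyc for each, and for some, such as Spc25, it was of the other sign. Of all genes, 29.3% had a lower response, 24.8% a higher one and 54.1% either. The count was 25 after median-ratio scaling. It also fell with no low-value filter and with some single libraries left out, as given above. Values are log2 interactions, siMyc minus siControl. Cyclins and kinases were Ccna2 at -1.23, Ccnb1 at -1.38, Plk1 at -1.33, Aurka at -1.29 and Nek2 at -1.17. Checkpoint genes were Bub1 at -1.09, Bub1b at -1.60, Ttk at -1.24 and Mad2l1 at -0.87. Of the passenger complex and separase, Aurkb at -1.60, Incenp at -1.34, Birc5 at -1.25, Cdca8 at -1.29 and Espl1 at -1.33 were called. Kinetochore genes were Ndc80 at -1.01, Nuf2 at -0.88, Spc24 at -1.59, Spc25 at -1.06, Cenpa at -1.43, Cenpe at -1.02 and Cenpf at -0.69. Spindle genes were Kif11 at -1.46, Kif2c at -1.21, Nusap1 at -1.28 and Hmmr at -1.27, and cytokinesis genes Kif20a at -0.97 and Ect2 at -1.25. The remaining calls were Ube2c at -1.63, Foxm1 at -0.95 and Top2a at -1.27.

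Between siGcn5 and siControl cells the response to dox differed for 1 member, Melk, at log2 0.61, with a larger response in siGcn5. Of all genes, 11.4% had a higher response, 14.5% a lower one and 25.9% either. The call of Melk was lost after quantile normalization and with some single libraries left out.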

How the results depend on the processing

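The 38 falls each with siMyc and dox, siGcn5 and dox, and siGcn5 without dox held for every member tested in every alternative run. Over all comparisons and alternatives, 7600 single-member results stayed on their side of the threshold, 223 lost a call, 96 gained one and 1 turned: Cenpa in siMyc against siGcn5 with dox, at log2 -0.52 without siGcn5 replicate 1 (0.63 without replicate 2). The median interaction of siGcn5 with dox turned to -0.08 without siGcn5 replicate 1 without dox and to -0.18 without replicate 2 with dox, and was 0.64 without replicate 1 with dox. With no low-value filter, counts were 1 (dox in siMyc, lower), 0 (siMyc without dox, lower), 18 (siMyc interaction) and 0 (siGcn5 interaction), where more genes enter the adjustment. Quantile normalization gave 6 members lower with dox in siMyc and 0 siGcn5 interactions, and voom 2 lower in siMyc without dox; the cause was not tested. With a library left out, counts ran 19 to 32 for dox in siControl, 1 to 2 higher and 1 to 8 lower for dox in siMyc, 23 to 38 for dox in siGcn5, 0 to 2 for siMyc without dox, 12 to 34 for the siMyc interaction, 0 to 4 higher and 0 to 1 lower for the siGcn5 interaction, 0 to 12 higher and 0 to 6 lower for siMyc against siGcn5 with dox, and 35 to 38 without. A replicate block gave 6 lower with dox in siMyc and 5 lower in siMyc without dox; deviations of same-numbered libraries correlated at 0.0933 to 0.489 over 15 pairs of groups, and no label ties the numbers to a batch. Each member had at least 179 reads in each library, and each group 2 libraries.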

Other observations

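DNA replication genes, which act in S phase before mitosis, were counted as a further list of 28, all tested. With dox in siControl 27 rose and 0 fell (median log2 1.14), where 46.1% of all genes rose. With siMyc and dox 0 rose and 28 fell (median -1.45), where 37.1% of all genes fell. With siGcn5 and dox 0 rose and 28 fell (median -1.27) and with siGcn5 without dox 0 rose and 24 fell (median -1.12), where 24.9% and 20.4% of all genes fell. With siMyc without dox 0 rose and 1 fell (median -0.21), where 10.7% of all genes fell. Mcm5, a subunit of the replicative helicase, had a mean of 15.8 RPKM in siMyc with dox, against 72.0 in siControl with dox (log2 -2.13, SE 0.27, limma adjusted p = 4.3e-05) and a mean of 21.7 RPKM in siGcn5 with dox, against 72.0 in siControl with dox (log2 -1.76, SE 0.27, limma adjusted p = 0.000458). Mcm10, which helps to activate the helicase, stood at log2 -2.11 and -1.60, the clamp loader subunit Rfc5 at -2.04 and -1.59, the helicase subunit Mcm7 at -2.09 in siMyc, and the DNA ligase Lig1 at -1.54 in siGcn5. The siMyc by dox interaction was called lower for 27 of the 28 (median -1.29) and for 29.3% of all genes.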
